A study of Mus musculus with 19 samples.

Results

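Genes of heat shock proteins and chaperones were compared between lobes and diets in mouse prostate. The genes were taken by symbol: names that begin with Hspa, Hspb, Hspd, Hspe, Hsph or Hsp and a digit, with Dnaja, Dnajb or Dnajc, with Bag1 to Bag6 or with Cct2 to Cct8, together with the heat shock factors Hsf1 and Hsf2. The endoplasmic reticulum (ER) genes Hspa5, Hsp90b1, Dnajb9, Dnajb11, Dnajc3 and Dnajc10 were left out. A symbol does not tell where a protein lies. Other proteins of the ER, such as those of Dnajb12, Dnajb14, Dnajc1 and Hspa13, therefore stay among the members. Of 18193 genes with a single annotated symbol on the array, 82 matched, measured by 196 probe sets. The probe set with the highest mean over all arrays stood for each gene. Hsf1 and Hsp90ab1 were not analysed here.

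Chaperones hold and fold other proteins. HSP70 proteins bind exposed stretches of unfolded protein in cycles that DNAJ co-chaperones start and that HSP110 and BAG proteins turn over, HSP90 finishes client proteins such as the androgen receptor and other steroid receptors, and the CCT ring and the mitochondrial HSP60 and HSP10 pair enclose a protein while it folds. Many of these genes are induced together by the transcription factor HSF1, which binds inverted GAA units, the heat shock element, in their promoters.

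RNA was measured on 19 arrays, 1 sample each, from the dorsolateral (DLP) and ventral (VP) lobes of C57BL/6J mice. The mice were 8 weeks old when they were put on a high fat diet (HFD) or a control diet for 12 weeks, 5 mice per diet. There were 4 arrays of HFD DLP, 5 of control DLP, 5 of HFD VP and 5 of control VP. No label ties an array to a mouse. The p-values therefore rest on the spread between these samples. With 5 mice per diet and 4 or 5 arrays per group, both lobes of 1 mouse are among them if each sample was 1 lobe of 1 of these mice. The main fit treated the lobes as independent.

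Values are log2 levels, converted from deposited values taken as log10. All 19 arrays held the same set of values once sorted. A level therefore gives only a probe set's place among the others, a shift of most genes together would leave no trace, and levels of different probe sets were not set against each other. Each array had a median of 1.85. A probe set was tested when it lay above that median on at least 4 arrays, which kept 11728 genes and 68 of the 82 chaperone genes. Of the 82, 61 lay above the median on every array and 11 lay below it on every array. Those not tested were Cct6b, Cct8l1, Dnajb3, Dnajb7, Dnajb13, Dnajc5b, Dnajc5g, Dnajc6, Dnajc22, Hspa1l, Hspa12b, Hspb3, Hspb7 and Hspb9. Lobe markers set the lobes apart on both diets: the 4 dorsolateral markers, Tgm4, Pate14, Mmp7 and Fcgbp, were higher in DLP and the 3 ventral markers tested, Spink5, Mug1 and Pigr, were lower. Because each array holds a whole lobe, fewer cells of a type and less RNA per cell cannot be told apart.

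The heat shock element was searched for in the promoters, since HSF1 binds it. In a table of 300-base RefSeq promoter windows (GRCm38.p6), 67 of the 82 genes and 12 of the 14 HSF1-inducible genes on the array had an entry. A pair of inverted units, GAA and TTC with any 2 bases between them, in either order, each of which reads the same on both strands, lay in a window of 10 of those 12 genes (83.3%), of 20 of the 67 chaperone genes (29.9%) and of 17% of all 27025 genes in the table. A run of 3 alternating units, again with any 2 bases between neighbours and searched on both strands, which contains the pair, lay in 3 of the 12 (25%), 4 of the 67 (5.97%) and 0.662% of all genes. The TATA box TATAAA, searched on the gene's own strand, lay in none of the 12, in 4.48% of the 67 and in 9.77% of all genes. A match describes these letters only and is not a measured binding site. These 5 windows belong to genes whose levels the results turn on, with the element in capitals.
Hspe1 promoter, chr1:55087898-55088197, plus strand: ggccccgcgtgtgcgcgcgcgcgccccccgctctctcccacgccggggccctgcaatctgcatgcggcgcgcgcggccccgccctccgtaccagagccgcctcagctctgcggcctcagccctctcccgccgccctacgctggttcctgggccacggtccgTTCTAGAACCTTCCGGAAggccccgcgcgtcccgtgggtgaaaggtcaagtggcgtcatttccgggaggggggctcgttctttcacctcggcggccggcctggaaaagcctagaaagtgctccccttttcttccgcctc
Hsph1 promoter, chr5:149636266-149636565, minus strand: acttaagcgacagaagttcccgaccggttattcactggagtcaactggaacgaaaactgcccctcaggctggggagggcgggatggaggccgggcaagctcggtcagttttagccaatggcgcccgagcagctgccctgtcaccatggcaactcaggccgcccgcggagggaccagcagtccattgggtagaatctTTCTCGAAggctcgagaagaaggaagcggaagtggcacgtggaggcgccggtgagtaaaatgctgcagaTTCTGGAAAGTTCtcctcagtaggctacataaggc
Hspa1b promoter, chr17:34959189-34959488, minus strand: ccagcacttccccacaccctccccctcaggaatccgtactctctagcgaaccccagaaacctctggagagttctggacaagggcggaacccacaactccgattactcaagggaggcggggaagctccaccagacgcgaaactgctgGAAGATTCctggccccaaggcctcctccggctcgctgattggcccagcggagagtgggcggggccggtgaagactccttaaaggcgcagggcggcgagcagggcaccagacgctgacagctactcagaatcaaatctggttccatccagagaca
Hspb1 promoter, chr5:135887669-135887968, plus strand: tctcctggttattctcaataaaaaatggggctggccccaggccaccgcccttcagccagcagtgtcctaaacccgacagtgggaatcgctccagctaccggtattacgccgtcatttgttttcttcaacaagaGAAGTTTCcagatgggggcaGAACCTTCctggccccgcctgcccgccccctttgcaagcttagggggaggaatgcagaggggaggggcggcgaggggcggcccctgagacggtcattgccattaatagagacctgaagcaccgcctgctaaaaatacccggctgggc
Dnaja4 promoter, chr9:54699309-54699608, plus strand: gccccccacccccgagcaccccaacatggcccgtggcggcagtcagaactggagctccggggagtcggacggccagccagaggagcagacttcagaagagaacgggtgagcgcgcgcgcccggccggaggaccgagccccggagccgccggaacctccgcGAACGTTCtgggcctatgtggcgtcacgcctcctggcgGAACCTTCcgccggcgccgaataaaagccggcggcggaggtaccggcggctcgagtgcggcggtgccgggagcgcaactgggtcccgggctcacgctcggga

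In the Hspe1 window the overlapping pairs began at -89, -84 and -79 relative to the annotated start. Hspd1 lies head to head with Hspe1, and their windows share 285 bases, so the same letters are the match of both genes. The Hsph1 window held a pair at -54 and a run of units at 15 and 20, within the transcribed part. Hspa1a and Hspa1b, neighbouring copies of the inducible HSP70 gene, had windows identical at 296 of 300 bases, with a pair at -104 in each. Hspb1 had pairs at -117 and -97, and Dnaja4 at -90 and -52 in 1 of its 2 windows. Dnajb1 and Hspa4l had entries without a match, while Hspa8 and Hsp90aa1 had no entry.

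Between the lobes, the chaperones changed about as often as other genes and more of the changes were increases in DLP. On the high fat diet 35 of the 68 tested passed limma's test (adjusted p under 0.05, Benjamini-Hochberg over all 11728 genes), 26 higher and 9 lower in DLP, or 51.5% against 52.9% of all genes. On the control diet 39 passed, 27 higher and 12 lower, or 57.4% against 55% of all genes. These shares are near the background and are not a result about chaperones. Among all genes the calls were split nearly evenly, with 26.8% higher and 26.1% lower on the high fat diet and 28.2% and 26.8% on the control diet. Some members may pass the filter only through the lobe where they are higher. Of the 61 above the array median on every array, 22 were higher and 9 lower on the high fat diet (50.8% called). On the control diet 25 of the 61 were higher and 12 lower (60.7% called). The median DLP minus VP difference of the 68 genes was 0.14 on the high fat diet and 0.18 on the control diet, against 0.004 and 0.005 over all genes tested. Markers of the epithelium moved with it. Of 8 luminal markers tested, 5 were lower in DLP on each diet, with 2 higher on the high fat diet and 1 on the control diet. Their score, the mean deviation of a list from its mean over 19 arrays, ran from -0.10 to -0.05 in HFD DLP and from 0.03 to 0.24 in HFD VP, and from -0.29 to -0.14 in control DLP and from -0.05 to 0.31 in control VP. Of 4 basal markers, 2 were higher in DLP on the high fat diet and 4 on the control diet, with scores from 0.17 to 0.31 in HFD DLP, from -0.67 to 0.02 in HFD VP, from -0.01 to 0.54 in control DLP and from -0.62 to -0.002 in control VP. No luminal or basal marker tested was listed at 0, and their part in the shift was not tested. The diets share no arrays here, and 31 genes passed on both, all 31 in the same direction. They were 88.6% of the calls on the high fat diet and 79.5% of those on the control diet, against 82.5% and 79.4% for all genes. Without the 4 arrays with an immediate early gene score over 0.5 (given with the inducible HSP70 genes), 35 passed on each diet. On the high fat diet the DLP arrays lay entirely above the VP arrays for 2694 of all 11728 genes and entirely below for 2517. On the control diet these counts were 2372 and 2242. Of the 68 chaperone genes they were 22 and 7, and 19 and 7. Genes named for the largest lobe differences were picked for such separation, so it is not a result about them.

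**Figure D1:**
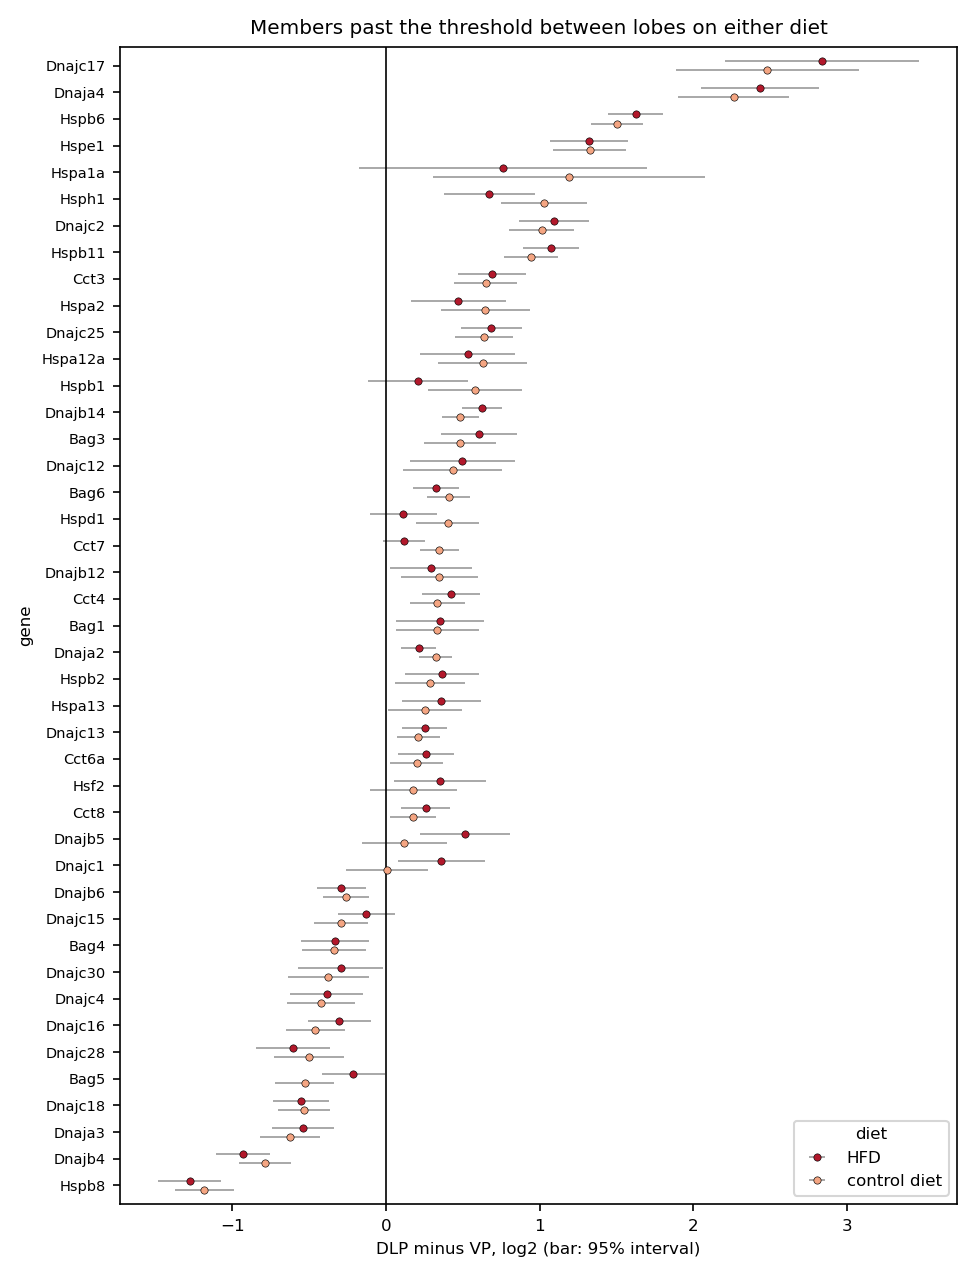
Difference between DLP and VP (log2, x axis) for each chaperone gene past the threshold on either diet (y axis), with its 95% interval, dark points for the high fat diet and light points for the control diet. Dnajc17, Dnaja4, Hspb6 and Hspe1 lie furthest to the right on both diets, and Hspb8 and Dnajb4 furthest to the left.

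The small heat shock proteins, which hold unfolding proteins without using ATP, went in opposite directions. All 5 tested members passed on the control diet, 4 higher and 1 lower in DLP, against 55% of all genes. Hspb6 (HSP20), known from smooth and cardiac muscle, read 5.55, 5.53, 5.48 and 5.49 in HFD DLP, against 3.84, 4.01, 3.86, 3.89 and 3.84 in HFD VP. On the control diet it read 5.39, 5.15, 5.35, 5.19 and 5.35 in DLP, against 4.02, 3.92, 3.69, 3.51 and 3.77 in VP. Every DLP array lay above every VP array. The difference was 1.63 on the high fat diet and 1.5 on the control diet, with adjusted p-values of 6.0e-12 and 6.9e-12 in limma's test. Hspb2, a muscle-linked member, was higher in DLP by 0.37 and 0.29. Its control-diet call was lost without control VP 1 or 4 or control DLP 1 or 5. Its mean level over all arrays, 1.88, lay close to the array median, so it may have passed the filter mainly through DLP. The calls of Hspb2 and the size of its differences are therefore uncertain. Smooth muscle markers moved with Hspb6 and Hspb2. Of 12 tested, 9 were higher in DLP on the high fat diet and 10 on the control diet, none lower, and none was listed at 0. Their score ran from 0.37 to 0.52 in HFD DLP and from -0.50 to -0.05 in HFD VP, and from 0.19 to 0.32 in control DLP and from -0.66 to -0.15 in control VP. Striated muscle markers went both ways: of 7 tested, 3 were higher and 2 lower in DLP on each diet. Their median difference was -0.03 on the high fat diet and 0.16 on the control diet. The part of the muscle markers in the Hspb6 and Hspb2 differences was not tested.

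Hspb8, the partner of BAG3 in chaperone-assisted autophagy, was lower in DLP. It read 4.41, 4.53, 4.24 and 4.43 in HFD DLP, against 5.73, 5.45, 5.89, 5.67 and 5.64 in HFD VP. On the control diet it read 4.58, 4.50, 4.23, 4.65 and 4.52 in DLP, against 5.74, 5.55, 5.88, 5.68 and 5.54 in VP. The groups did not overlap, and the difference was -1.28 and -1.18, with adjusted p-values of 1.4e-09 and 1.8e-09. The third probe set of Hspb8 gave 0.18 on the high fat diet and -0.40 on the control diet, and the first of these did not pass. Bag3 itself was higher in DLP, by 0.61 on the high fat diet and 0.48 on the control diet. Hspb11, now known as a part of intraflagellar transport, was higher by 1.08 and 0.94. Hspb1 (HSP27), which binds actin filaments and unfolding proteins, averaged 8.87 ± 0.23 in control DLP, against 8.29 ± 0.33 in control VP (SD, n = 5 each), a difference of 0.58 (adjusted p = 0.0024, limma). On the high fat diet its difference was 0.21 and did not pass, but the other probe set of Hspb1 was higher on both, by 0.67 on the high fat diet and 0.97 on the control diet, so the call by diet rests on the probe set.

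**Figure D2:**
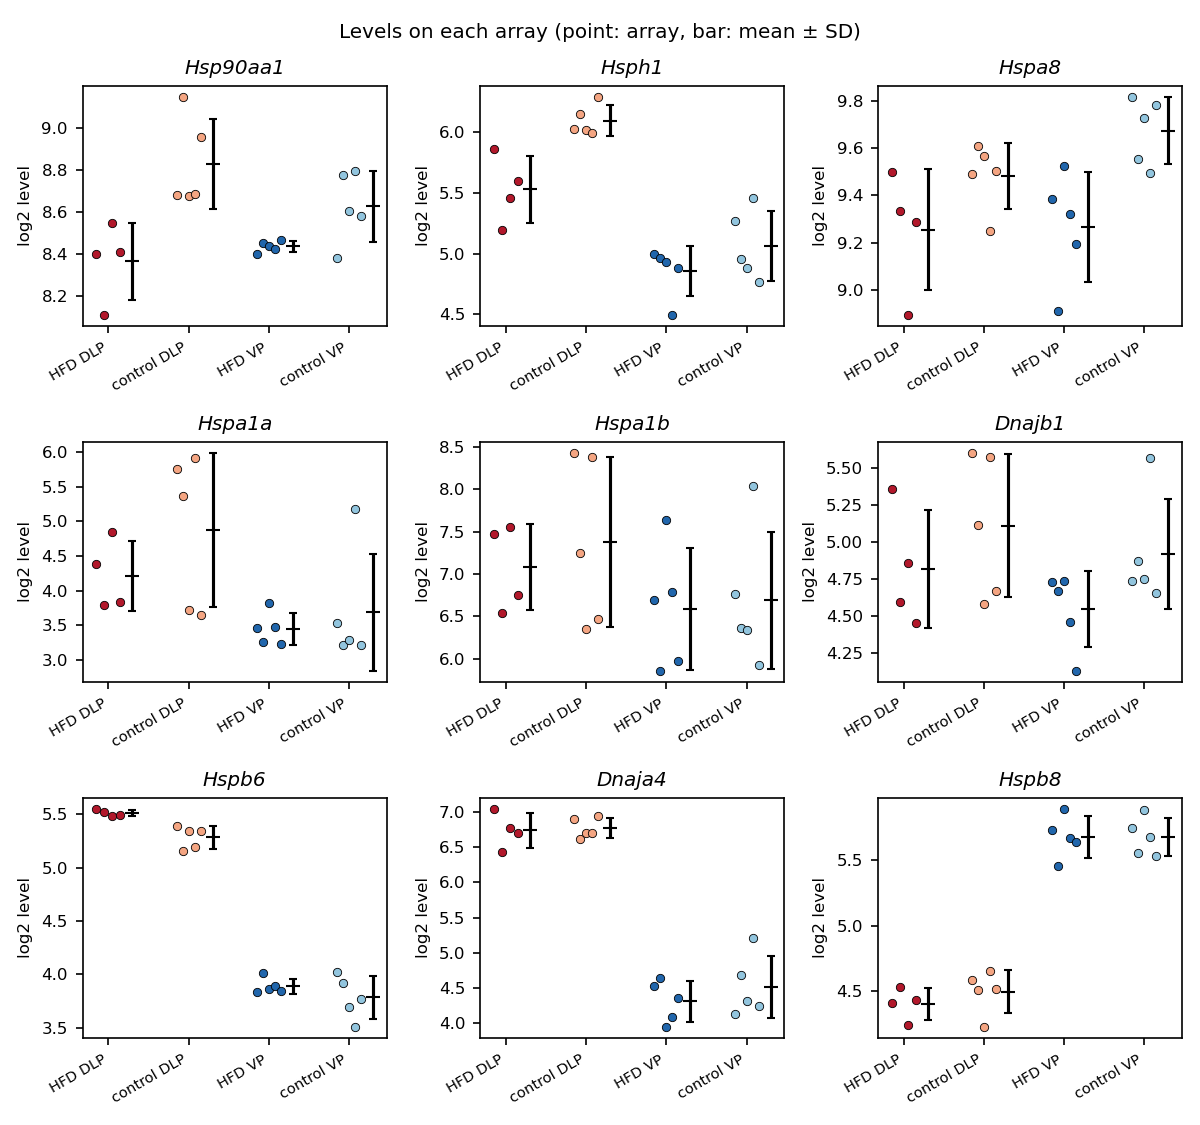
Log2 level (y axis) of 9 chaperone genes in the 4 groups (x axis), with each array as a point and the mean ± SD beside it. Hspb6 and Dnaja4 lie higher in DLP and Hspb8 lies lower, without overlap, while Hspa1a, Hspa1b and Dnajb1 spread widely within groups.

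DNAJ proteins, which hand substrates to HSP70 and start its ATP cycle, held both the largest increases and several decreases. Dnaja4, a cytosolic member, read 7.05, 6.44, 6.77 and 6.71 in HFD DLP, against 4.52, 4.64, 3.94, 4.08 and 4.35 in HFD VP. On the control diet it read 6.90, 6.62, 6.70, 6.71 and 6.95 in DLP, against 4.12, 4.68, 4.32, 5.21 and 4.24 in VP. The lobes did not overlap on either diet. The differences were 2.44 and 2.26, and the other probe sets of Dnaja4 gave 2.38 and 1.84 on the high fat diet and 2.38 and 1.87 on the control diet. Dnajc2, a ribosome-bound member, was higher by 1.09 and 1.01, with a second probe set at 1.54 and 1.57. Dnajb14 was higher by 0.63 and 0.48, and Dnajc25 by 0.69 and 0.64. In the other direction, Dnajb4 was lower by -0.93 on the high fat diet and -0.79 on the control diet. The mitochondrial Dnaja3 was lower by -0.54 and -0.62 by its main probe set, and its other probe set gave -0.15 and -0.10 and did not pass. Dnajc18 was lower by -0.55 and -0.54, and Dnajc28 by -0.61 and -0.50.

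Of 43 chaperone genes with several probe sets past the filter, 6 had probe sets called in both directions between control DLP and control VP, in the fit across all probe sets, and 1 had them between HFD DLP and HFD VP. The 6 were Cct3, Dnajb6, Dnajc13, Dnajc14, Dnajc5 and Hspa9, and the 1 was Cct3. Dnajc17, a nuclear member linked to splicing, had the largest single difference, 2.84 and 2.48, but its other probe set gave 0.35 and 0.09 and did not pass, and that probe set's mean level of 1.80 lay below the array median. Its main probe set also varied within groups more than 97.8% of genes tested. Which transcripts each probe set reads was not tested.

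**Figure D3:**
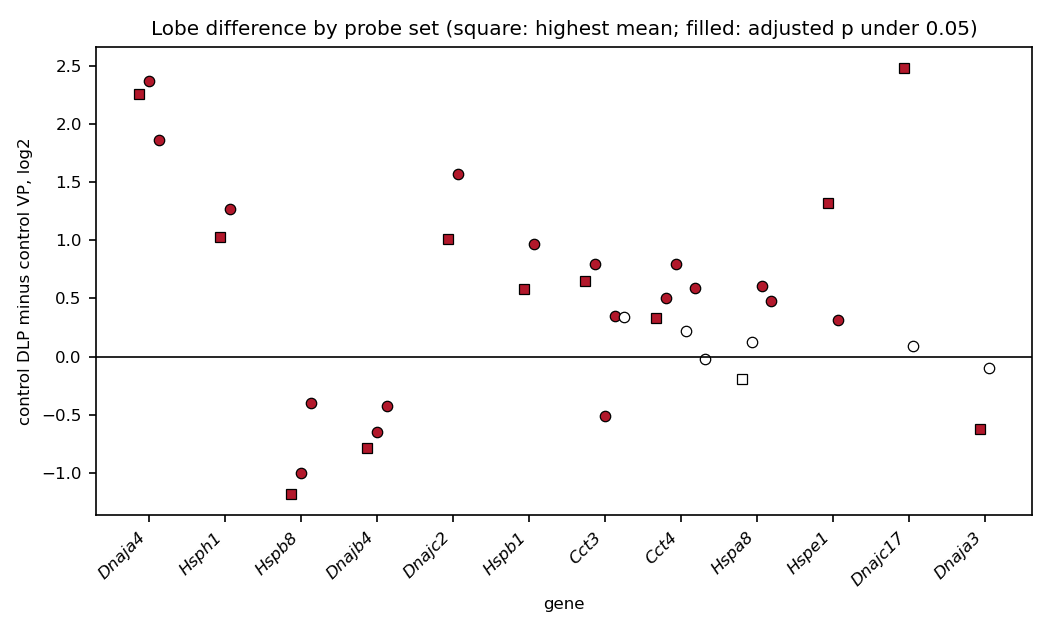
Difference between control DLP and control VP (log2, y axis) for every probe set past the filter of 12 genes (x axis), with squares for the probe set of highest mean and filled symbols for adjusted p under 0.05. The probe sets of Dnaja4 and Hsph1 lie close together, whereas those of Cct3 fall on both sides of 0 and Dnajc17 has 1 probe set at 2.48 and 1 at 0.09.

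Among the folding chambers, Hspe1 (HSP10), the lid of the mitochondrial chamber, read 7.35, 7.16, 7.56 and 7.34 in HFD DLP, against 6.16, 5.64, 6.29, 5.99 and 6.07 in HFD VP. Control DLP read 7.33, 7.59, 7.43, 7.42 and 7.41, against 6.31, 5.74, 6.10, 6.14 and 6.27 in control VP. The groups did not overlap on either diet, with differences of 1.32 and 1.33. The other probe set of Hspe1 gave 0.14 on the high fat diet, which did not pass, and 0.31 on the control diet. Hspd1 (HSP60), which forms the chamber and shares the promoter with Hspe1, was higher in DLP by 0.40 on the control diet (adjusted p = 0.0017, limma) and differed by 0.11 on the high fat diet. Of the 7 CCT subunits tested under the symbol rule, 4 were higher in HFD DLP and 5 in control DLP, and none was lower. These were 57.1% and 71.4% called, against 52.9% and 55% of all genes. The CCT subunit Tcp1 lies outside the rule. It averaged 7.67 in HFD DLP against 7.66 in HFD VP, and 7.70 in control DLP against 7.65 in control VP. Cct3 was higher by 0.69 and 0.65, Cct4 by 0.42 and 0.33, Cct6a by 0.26 and 0.20 and Cct8 by 0.26 and 0.17. The other probe set of Cct6a gave 0.03 on the high fat diet and -0.03 on the control diet and did not pass. Cct7 passed on the control diet at 0.35 and gave 0.12 on the high fat diet, but its other probe set passed on both, at 0.75 on the high fat diet and 0.68 on the control diet. Cct2 differed by -0.03 and 0.02 by its main probe set, while the third gave 0.41 and 0.33 and passed, and Cct5 by -0.07 on each diet. The smallest calls were not stable: on the control diet the Cct6a call was lost with no filter, the mean of probe sets, no variance trend, array weights, the fixed replicate block or cyclic loess, and without any 1 control DLP array, HFD DLP 1, HFD VP 1, 4 or 5 or control VP 1 or 4, and the Cct8 call with no filter, no variance trend or the fixed block, and without control DLP 1, 2 or 5 or control VP 2, 3 or 4. On the high fat diet Cct6a missed it without HFD DLP 1 or 4. Of 4 other probe sets of Cct3, 2 were also higher on both diets, at 0.63 and 0.32 on the high fat diet, 1 was lower at -0.73 and -0.51, and 1 did not pass. Of 5 other probe sets of Cct4, 2 were higher on both diets, at 0.46 and 0.91 on the high fat diet, 1 passed on the control diet only, at 0.59, and 2 did not pass.

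Of the HSP70 family, 3 of 8 tested members were higher in DLP on each diet and none lower, or 37.5% called against 52.9% and 55% of all genes. Hspa2, best known from testis, was higher by 0.47 and 0.65, and Hspa12a, a distant relative, by 0.53 and 0.63. Hspa12a lay below the array median on every VP array and above it on 6 arrays, all of DLP. It therefore passed the filter through DLP alone. Its level in VP is near the bottom of the scale, so its call and the size of its difference are uncertain. Hspa13 passed on the high fat diet, by 0.36, and Hspa1a on the control diet, by 1.19 (adjusted p = 0.022, limma) with overlapping groups. The other probe sets of Hspa13 gave 0.19, -0.03 and 0.13 on the high fat diet and did not pass. Its call was also lost with the mean of probe sets. Hspa8, the constitutive HSC70, differed by -0.01 and -0.19, but 2 of its 3 other probe sets passed on both, at 1.37 and 0.60 and at 0.60 and 0.48. Hspa9, Hspa14 and the HSP110 members Hspa4 and Hspa4l did not pass on either diet by their main probe sets. Their other probe sets differed: 2 of Hspa4 were higher on both diets, at 1.03 and 1.48 and at 0.42 and 0.23, and 1 of Hspa14 at 0.51 and 0.41. For Hspa4l, 1 was lower on both at -0.36 and -0.47 and another on the high fat diet at -0.46, while for Hspa9 1 was higher on both at 0.28 and 0.47 and another was lower on the control diet at -0.61. Hsph1 (HSP105), the HSP110 member that resets HSP70, was higher by 0.67 on the high fat diet and 1.03 on the control diet, and its other probe set gave 0.90 and 1.27. Hsp90aa1, the inducible HSP90, differed by -0.07 and 0.20 and did not pass, but its 2 other probe sets were lower on the high fat diet, at -0.37 and -0.66, and did not pass on the control diet, at 0.05 and -0.23. Among the BAG proteins, Bag1 and Bag6 were higher on both diets, Bag4 was lower on both, and Bag5 was lower on the control diet by -0.53. The Hspa1a call was lost without control VP 2, 3 or 5 or control DLP 1, 2 or 4, at differences of 0.93 to 1.09, and the Hspa2 and Hspa13 calls on the high fat diet were lost without HFD DLP 1. The Bag1 call on the control diet was lost without control VP 3 or 4 or control DLP 3, 4 or 5, and on the high fat diet without HFD VP 1, 3 or 4 or any HFD DLP array.

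Between the diets no chaperone gene passed in either lobe. In DLP 0 of 68 passed, as did 0% of all genes, and the lowest adjusted p in limma's test was 0.364. Before adjustment 7 genes had a p under 0.05, or 10.3% of the 68 against 5.64% of all genes. Of these, 3 were higher (4.41%, against 3.11% of all genes) and 4 lower (5.88%, against 2.53%). In VP 0 of 68 passed, against 1.11% of all genes, and the lowest adjusted p was 0.0914. Before adjustment 6 genes had a p under 0.05, or 8.82% against 15.2% of all genes, with 2 higher (2.94%, against 8.07%) and 4 lower (5.88%, against 7.15%). The medians of the 68 genes were -0.006 in DLP and -0.007 in VP, against 0.010 and 0.008 over all genes.

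The HSF1-inducible members lay lower on the high fat diet in DLP without passing singly. All 14 tested had a negative difference there, the largest -0.67 for Hspa1a and the smallest -0.002 for Bag3, with a median of -0.25, whereas 46.3% of all genes were negative. No member passed, and the list was chosen with earlier results of these arrays known, so its direction is not independent evidence. Nerve markers moved with them: all 6 tested were negative in DLP, with a median of -1.03 and none past the threshold. Control DLP 2 and 5, which had the highest nerve scores (2.57 and 3.13), also had the highest Hsp90aa1 and Hsph1. Control DLP 4 had the next highest nerve score, 1.83, but the lowest Hsph1 of its group, 5.99, and Hsp90aa1 at 8.68. The part of the nerve markers in the result was not tested. Without the 4 arrays with an immediate early score over 0.5, 8 of 14 were negative, with a median of -0.19. The 14 values come from the same 9 arrays and are not separate observations. In VP 10 of 14 were negative, with a median of -0.09, against 47.8% of all genes. The difference between the lobes' diet effects was tested gene by gene, and 0 of the 68 passed, against 0.00853% of all genes, the lowest adjusted p being 0.497. Before adjustment 4 genes had a p under 0.05, or 5.88% against 8.45%.

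**Figure D4:**
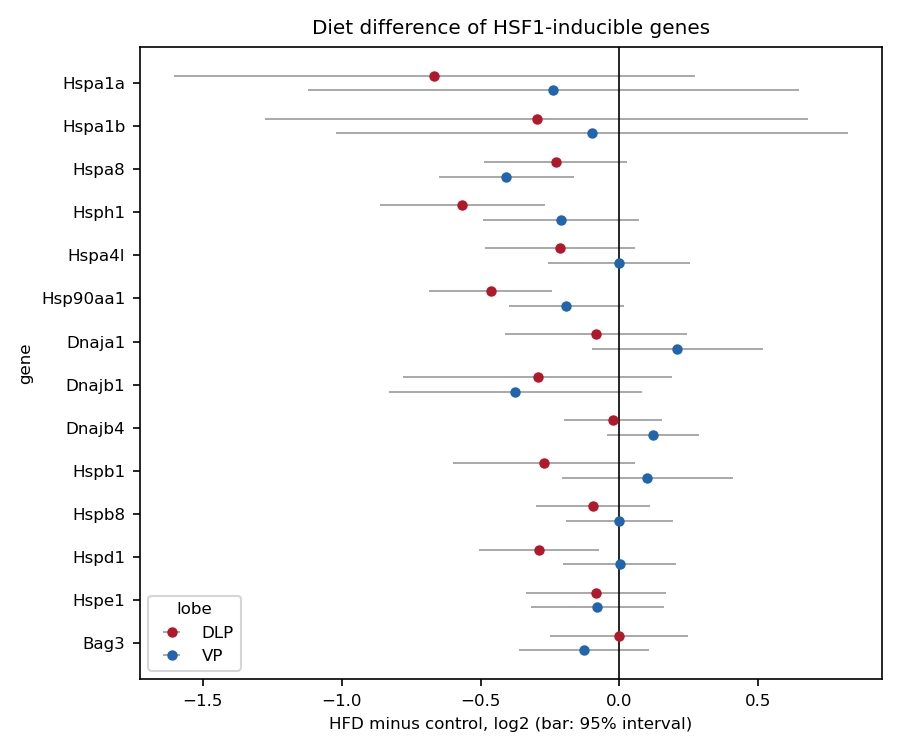
Difference between HFD and control (log2, x axis) for the 14 HSF1-inducible genes (y axis), with 95% intervals, red points for DLP and blue points for VP. In DLP every point lies at or below 0, and the intervals of Hsp90aa1, Hsph1 and Hspd1 leave out 0, while those of Hspa1a and Hspa1b are wide.

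Hsp90aa1 had the smallest p in DLP. It read 8.40, 8.11, 8.54 and 8.41 in HFD DLP, against 8.68, 9.15, 8.67, 8.68 and 8.96 in control DLP. Every high fat array lay below every control array. The difference was -0.46 ± 0.11 (SE), which is 1.38-fold lower, and its 95% interval ran from -0.68 to -0.24. A two-sided exact permutation test gave p = 0.0159, which 4 against 5 arrays cannot go below. The gene was picked for its small p among many, and its adjusted p in limma's test was 0.364. Its other probe sets gave -0.43 and -0.63. In VP it read 8.40, 8.45, 8.44, 8.42 and 8.47 on the high fat diet, against 8.38, 8.78, 8.60, 8.79 and 8.58 on the control diet. The VP groups overlapped through control VP 1, and the difference was -0.19 (adjusted p = 0.375, limma).

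Hsph1 read 5.86, 5.20, 5.46 and 5.60 in HFD DLP, against 6.03, 6.15, 6.02, 5.99 and 6.29 in control DLP. The groups did not overlap. The difference was -0.57 ± 0.14 (SE), which is 1.48-fold lower, and its 95% interval ran from -0.86 to -0.27. The exact permutation p was again 0.0159, and the adjusted p in limma's test was 0.501. A second probe set gave -0.50. In VP the difference was -0.21, with overlapping groups. Hspd1 averaged 7.07 ± 0.17 in HFD DLP (SD, n = 4), against 7.36 ± 0.13 in control DLP (SD, n = 5), a difference of -0.29 with an adjusted p of 0.817 in limma's test. Among all genes, 1.13% had high fat DLP arrays entirely below the control arrays, and of the 68 chaperone genes 3 did (4.41%).

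In VP the smallest p belonged to Hspa8. It read 9.39, 8.91, 9.53, 9.32 and 9.20 in HFD VP, against 9.81, 9.55, 9.73, 9.49 and 9.78 in control VP. The groups overlapped only in HFD VP 3, which lay above control VP 4. The difference was -0.41 ± 0.12 (SE), with a 95% interval from -0.65 to -0.16 and an adjusted p of 0.0914 in limma's test, and the exact permutation p was 0.0159. No array left out singly gave a call. The main probe set passed only without control VP 4 and HFD VP 3 together, at -0.52 with an adjusted p of 0.0438, and leaving out that pair also removes the overlap. Its other probe sets gave -0.91 (adjusted p = 0.0345 in the fit across all probe sets), -0.08 and -0.04. In DLP the main difference was -0.23. Dnaja2, an HSP70 partner, averaged 7.85 ± 0.07 in HFD VP, against 7.68 ± 0.07 in control VP (SD, n = 5 each), a difference of 0.17 (adjusted p = 0.112, limma), and another of its probe sets gave -0.21. Dnajc1, Dnajc15 and Cct8 differed by -0.32, -0.19 and -0.15, and Dnajc8 by 0.24.

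A few members lay higher on the high fat diet in DLP. Dnajb5, a DNAJ protein related to Dnajb1, read 2.71, 2.57, 2.80 and 2.67 in HFD DLP, against 2.53, 2.14, 2.15, 2.39 and 1.97 in control DLP. The groups did not overlap, and the difference was 0.45, with an adjusted p of 0.742. Hspb6 lay at 5.48 to 5.55 in HFD DLP, against 5.15 to 5.39 in control DLP, again without overlap, a difference of 0.23 with an adjusted p of 0.817. Among all genes, 2.02% had high fat DLP arrays entirely above the control arrays, and of the 68 chaperone genes 2 did (2.94%). The 12 smooth muscle markers were positive in the same comparison, with a median of 0.20 and none past the threshold. Their part in the Hspb6 value was not tested.

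Averaged over both lobes, with the lobes treated as independent, 0 of 68 passed, against 0.119% of all genes, and the lowest adjusted p was 0.0803. Before adjustment 12 had a p under 0.05, or 17.6% against 11.8% of all genes, with 6 higher (8.82%, against 6.75%) and 6 lower (8.82%, against 5.08%). Hsp90aa1 differed by -0.33, Hsph1 by -0.39 and Hspa8 by -0.32. Without control VP 1, Hsp90aa1 passed at -0.36 with an adjusted p of 0.0499.

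The inducible HSP70 genes varied most from array to array. Among all genes tested, Hspa1b and Hspa1a had within-group SDs of 0.80 and 0.76, above 99.4% and 99.3% of genes, and Dnajb1, the HSP40 that works with them, had 0.39, above 94.8%. The median SD of the 68 genes was 0.165, against 0.169 over all genes. Hspa1a read 4.38, 3.79, 4.84 and 3.83 in HFD DLP, against 5.75, 5.37, 3.72, 5.90 and 3.65 in control DLP. In VP it read 3.46, 3.26, 3.82, 3.47 and 3.23 on the high fat diet, against 3.53, 3.22, 3.29, 5.17 and 3.21 on the control diet. It was high on control DLP 1, 2 and 4 and on control VP 4, and the diets overlapped in both lobes. Hspa1b was 8.43 and 8.38 on control DLP 1 and 4 and 8.04 on control VP 4. Because these 2 copies are nearly identical, their probe sets may share signal and their separate values are uncertain. Dnajb1 read 5.60 and 5.58 on control DLP 1 and 4 and 5.57 on control VP 4.

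Immediate early genes, which respond within minutes to stress and handling, were high on several of the same arrays. The score of the 9 tested, Fos, Jun, Junb, Egr1, Atf3, Dusp1, Ier2, Zfp36 and Btg2, was 1.14 on control VP 4, 1.04 on control DLP 1, 0.84 on control DLP 4 and 0.83 on HFD DLP 3, and lay between -0.80 and 0.47 on the other 15 arrays. No immediate early gene was called between diets in either lobe, with medians of -0.25 in DLP and -0.32 in VP. Without those 4 arrays, a choice made after their values were seen, 8 of 14 HSF1-inducible genes were negative in VP too, with a median of -0.04. No member passed between the diets in that fit. The part of handling or dissection in these values was not tested.

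**Figure D5:**
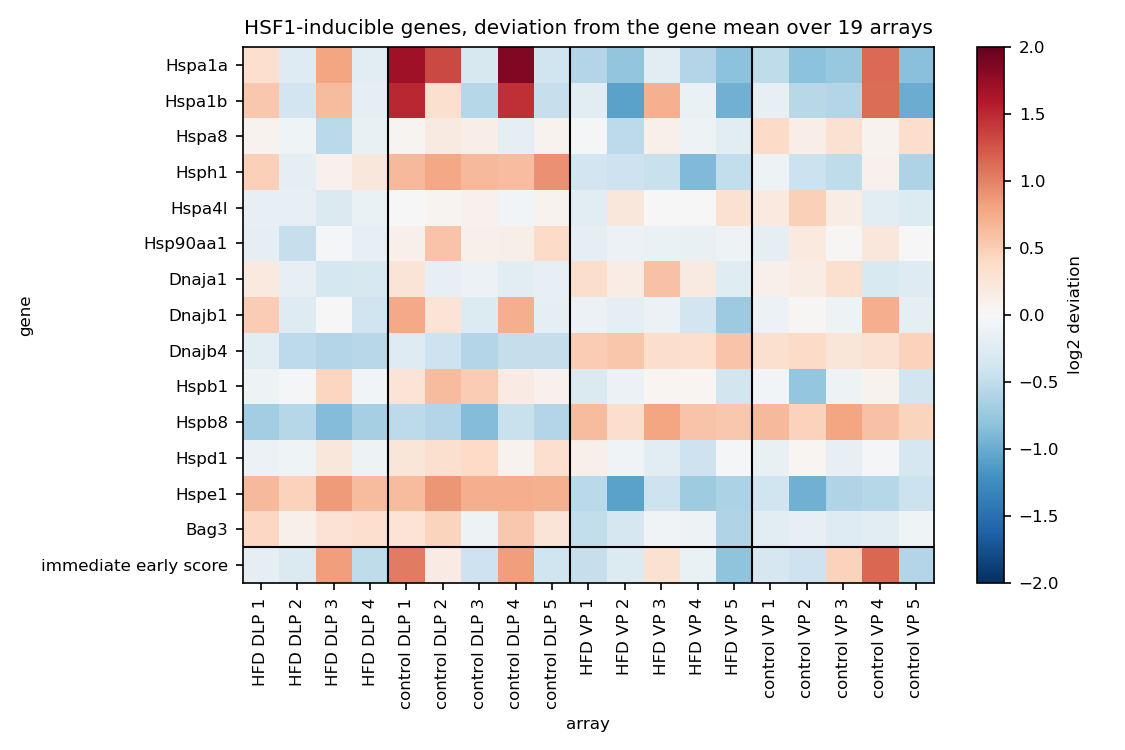
Deviation of each HSF1-inducible gene from its mean over 19 arrays (rows, log2 colour scale) on every array (columns, by group), with the immediate early score in the bottom row. Hspa1a and Hspa1b are strong red on control DLP 1 and 4 and control VP 4, where Dnajb1 is a paler red and the bottom row is red too. Hspa1a is also strong red on control DLP 2, where the score is 0.17, while Hsph1 is a paler red across all control DLP arrays.

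Nerve RNA differed between arrays of 1 group. Dnajc6 (auxilin), a partner of HSC70 that uncoats clathrin vesicles in neurons, was below the test filter. It read 1.16, 1.21, 1.57 and 1.33 in HFD DLP, against 1.49, 2.52, 0.62, 2.19 and 3.11 in control DLP. It was high on control DLP 2, 4 and 5. The score of the 6 nerve markers tested was 2.57, 1.83 and 3.13 on those arrays, -0.07 and -0.14 on control DLP 1 and 3, and 0.03 to 0.70 in HFD DLP. It lay between -1.22 and -0.66 in HFD VP, against -1.08 and -0.62 in control VP. None of the 6 was listed at 0, and their part in the Dnajc6 values was not tested.

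Co-chaperones and some other chaperones outside the symbol rule were called between the lobes about as often as other genes. Of 32 tested, 13 were higher and 3 lower in DLP on the high fat diet, and 11 were higher and 6 lower on the control diet, or 50% and 53.1% against 52.9% and 55% of all genes, with medians of 0.12 and 0.08. Clpb, a mitochondrial disaggregase, was higher by 1.28 and 1.16. Fkbp4, which carries steroid receptors with HSP90, was higher by 0.97 and 0.94, while its rival Fkbp5, an androgen-induced gene in prostate, was lower by -1.32 and -1.27. Ahsa2, a relative of the HSP90 activator Ahsa1, was higher by 1.01 and 0.86. Cryab, a small heat shock protein outside the symbol rule, averaged 3.59 in HFD DLP against 3.85 in HFD VP and was called lower in DLP. That call was lost in 15 of 33 alternatives. Between diets none passed in DLP, and in VP 2 were lower (6.25%, against 1.11% of all genes): Serpinh1 (HSP47), the collagen chaperone, by -0.63 (adjusted p = 0.0177, limma) and the prefoldin subunit Vbp1 by -0.28. Both calls were lost with VP fitted alone (adjusted p = 0.19 and 0.246, limma) and without the 4 arrays with an immediate early score over 0.5. The Serpinh1 call was also lost with the mean of probe sets, and the Vbp1 call with 1 weight per lobe. In DLP Serpinh1 and Vbp1 differed by -0.19 and -0.08.

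Of the 6 ER genes left out by the rule, 4 were higher in DLP on the high fat diet and 6 on the control diet, against 26.8% and 28.2% of all genes called higher, with medians of 0.46 and 0.47. On the high fat diet Hspa5 gave 0.17 and Dnajc10 -0.29, and neither passed. On the control diet the Hspa5 call was lost without control DLP 2 or control VP 3 or 5, the Dnajb11 call without control DLP 2 or 3 or control VP 1 or 3, and the Dnajc10 call without control VP 3. Hsp90b1 (GRP94) was higher by 1.00 and 0.80. Between diets Dnajc10 passed in VP, by 0.55 (adjusted p = 0.0319, limma), but not with VP fitted alone (adjusted p = 0.24) nor without HFD VP 1, 2 or 5 or control VP 3 or 5. None passed in DLP, where Hspa5 (BiP) differed by -0.65 with high fat arrays entirely below the control arrays (adjusted p = 0.817, limma). Cirbp, a cold-inducible RNA-binding protein, differed by 0.38 in DLP and 0.34 in VP and did not pass.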

How the data were processed

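The authors deposited 1 value table on a log scale, and MAS5 is the only tool named in the submitters' processing notes. No source used here gives the log10 base, which was inferred from the hybridization controls, whose steps were 0.535, 0.735 and 0.963, against nominal steps of 0.523, 0.699 and 0.602. The deposited log10 values were multiplied to log2, so folds rest on this base and p-values do not. Of 45101 probe sets, 64 controls were left out, and the platform annotation gave 34958 a single symbol. limma 3.58.1 in R 4.3.3 fitted 4 group means to all 19 arrays (eBayes with trend), with two-sided p-values adjusted by Benjamini-Hochberg over 11728 genes at a threshold of 0.05. The fit was tested on simulated data.

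Named genes were a core list of chaperones, the members with the largest changes past the threshold without overlap (or the 5 smallest p), up to 3 co-chaperones per direction and the ER genes. The members and lists were chosen with earlier results of these data known. Alternatives covered the offset, filter, probe set, variance prior, weights, replicate block, threshold, normalization, each lobe alone and arrays left out. Arrays limit the precision by their number.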

Additional observations from a re-analysis of the deposited data

Results flagged for a closer look

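In 208 sets of arrays, 4 groups for each of 52 named genes, 16 had 1 array whose gap to the next array exceeded Dixon's 95% critical value. Chance flags about 1 in 20 such groups. Values are log2 levels, each against the range of the other arrays of its group.

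In HFD DLP, array 3 had the highest Hspb1, at 8.97 against 8.44 to 8.52, and the highest Hspd1, at 7.32 against 6.97 to 7.0. Its immediate early score of 0.83 was also the highest of that group. Array 4 had Cct3 at 7.72 against 7.46 to 7.49, and array 1 had Dnajb4 at 4.87 against 4.50 to 4.56.

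In control DLP, array 1 had Dnaja1 at 7.31 against 6.85 to 6.95, and Dnajc17 at 5.70 against 6.42 to 6.71. Array 3 had Cct3 at 7.47 against 7.61 to 7.64.

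In HFD VP, array 3 had the lowest Cct2, at 7.70 against 8.13 to 8.27, and the lowest Dnajc21, at 4.70 against 4.81 to 4.86. Array 2 had Hspb6 at 4.01 against 3.84 to 3.89 and Dnajc28 at 3.03 against 2.64 to 2.73. Array 4 had Hsph1 at 4.50 against 4.89 to 5.00.

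In control VP, array 4 had Hspa1a at 5.17 against 3.21 to 3.53, Dnajb1 at 5.57 against 4.66 to 4.87 and Cct7 at 7.10 against 6.93 to 6.97. Its immediate early score, 1.14, was the highest of all arrays. Array 5 had Hspa12a at 0.928 against 1.45 to 1.55, all 5 below the array median.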

How the results depend on the processing

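Counts of chaperone genes past the threshold stayed within 1.5 times of those reported under the alternatives, with these exceptions. At a threshold of 0.10 there was 1 in VP, Hspa8, and 1 averaged over lobes, Hsp90aa1. Without control VP 4 and HFD VP 3 there was 1 in VP, Hspa8. With each array left out in turn, the counts ran from 30 to 37 between lobes on the high fat diet, from 34 to 40 on the control diet and from 0 to 1 averaged over lobes, and were 0 for each diet contrast and for the difference between lobes. The HSF1-inducible median ran from -0.25 to -0.20 in DLP and from -0.17 to -0.03 in VP. The background moved more: 130 genes were called between diets in VP, against 0 with that lobe fitted alone, 20 with 1 weight per lobe, 47 with array weights and 209 with a filter set at the upper quartile.

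Of 119 results of single genes, apart from the choice of probe set, 3789 values kept direction and side of the threshold, 135 lost the call, 4 gained it and 1 reversed. The reversal was Dnajc13, control DLP minus control VP, at -0.0061 with the mean of probe sets. Of 108 values from another probe set, 15 reversed, 23 lost the call and 1 gained it. Reversed were Dnaja2 between diets in VP (-0.21) and averaged (-0.10), Hspa8 averaged (0.015) and Cct7 between the lobes' diet effects (0.077). Between the lobes on the high fat diet they were Hspb8 (0.18), Cct3 (-0.73), Cct4 (-0.0061), Dnajb6 (0.19), Dnajc13 (-0.16) and Hspa13 (-0.029). On the control diet they were Cct3 (-0.51), Cct4 (-0.021), Cct6a (-0.030), Dnajb6 (0.35) and Dnajc13 (-0.22). The cause was not tested.

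Whether the replicate numbers pair lobes of 1 mouse was not settled. Of 18 same-numbered pairs, correlations of deviations ran from -0.15 to 0.46, with 8 over 0.1, and 7 matched their own number best. The lowest and the highest came from pairs across diets, which cannot share a mouse. Between DLP and VP within a diet, correlations ran from -0.07 to 0.19. There, HFD 1, 2 and 4 and control 2 and 4 matched their own number best. With the number as a fixed replicate block, 37 genes passed between lobes on the high fat diet, 38 on the control diet and 0 between diets. With diet and number as a random block the counts were 36, 39 and 0, at a correlation of 0.044. Low levels and the number of arrays limit what can be told apart.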
